A study of Mus musculus with 36 samples.

Results

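The 5 genes of the Ikaros family of zinc finger transcription factors, Ikzf1 to Ikzf5, were examined by chromatin accessibility in B3, a mouse pre-B cell line. Their DNase hypersensitive sites (DHS, stretches of open chromatin that the enzyme DNase I cuts) were taken as every DHS overlapping a GENCODE vM21 gene body (mm10) extended by 10 kb on each side. By this rule 23 of the 52788 DHS of the table belonged to the family: 17 at Ikzf1, 0 at Ikzf2, 4 at Ikzf3, 1 at Ikzf4 and 1 at Ikzf5. The rule uses positions alone, but it was set with earlier results of these data known. The DHS themselves had passed the authors' peak calling and read filter.

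DNase-seq was available for 36 libraries in 12 groups of 3. An Ikaros line and a Control line were each sampled at 0, 2, 6, 12, 18 and 24 h. Both lines are B3 cells transduced with a retroviral vector and sorted for the GFP it encodes. The Ikaros vector carries HA-tagged Ikaros fused to ERt2, a hormone-binding domain, and the Control vector carries ERt2 without Ikaros, so the fusion protein is added to the family genes the cells already have. The labels name 0.5 µM 4-hydroxytamoxifen, which lets the fusion enter the nucleus, for every library. By the study's methods, however, the cells of the first time point got no drug and were obtained apart from the others. The replicates carry the numbers 4, 5 and 6 and belong by the labels to batches 11, 12 and 13, at 0 h as at all later times, and the methods have a batch collected together. The sources thus disagree on whether the 0 h DNase-seq cells were a separate collection, and if they were, a difference between 0 h and later times cannot be told apart from it. Nothing in the sources used here ties the 3 replicates of a group to separate transductions. The p-values thus measure the spread between these libraries, as it stands after the authors' removal of structured noise. That step can lower the spread, and its effect on the p-values was not tested.

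Ikaros, the product of Ikzf1, is required for lymphocyte development and for the passage of large cycling pre-B cells to the small resting stage. The family members share N-terminal zinc fingers that bind DNA around a GGGAA core and C-terminal fingers through which they pair with each other. Aiolos (Ikzf3) works beside Ikaros in B cells, Helios (Ikzf2) is best known in T cells, Eos (Ikzf4) in regulatory T cells, and Pegasus (Ikzf5) is broadly expressed.

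All values are log2 of a normalised read density per kb of DHS (RPKM) after the authors' noise correction, which makes levels comparable between DHS of different width. Library medians over all DHS lay between 3.90 and 4.11. The cell type was checked by the DHS within 1000 bp of the starts of marker genes. Of 12 pre-B genes 10 had such a DHS, against 2 of 9 T cell, 1 of 7 myeloid, 1 of 5 erythroid and 1 of 3 plasma cell genes. Each DHS is named below by the distance of its centre from the annotated start of its gene, counted in the direction of transcription.

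The 17 Ikzf1 DHS fell into coding exon DHS and others. Ikzf1 lies on the plus strand at chr11:11685003-11772926. Of the 7 coding exons of the GENCODE transcript used here, 6 lay in a DHS each: exon 2 in chr11:11707597-11708097, exon 3 in chr11:11748163-11748716, exon 4 in chr11:11753826-11754354, exon 5 in chr11:11758180-11758336, exon 6 in chr11:11761028-11761528 and exon 7 in chr11:11768688-11769688. The exon outside every DHS was coding exon 1, with 40 coding bases, the shortest of the 7. The vector encodes the Ikaros protein and so holds Ikaros coding sequence, and in the coding exon DHS reads of the vector and reads of the gene cannot be told apart in the table. The remaining 11 Ikzf1 DHS hold no coding base. The exon sequences are shown because they are what a vector-borne coding sequence and the gene can share; which exons the fusion holds, and whether its insert has introns, is not given in the sources used here. Capitals mark the coding bases and lower case the flanking intron (plus strand, genome sequence of GRCm38, coordinates chr11:11748293-11748589 for exon 3, chr11:11758177-11758335 for exon 5 and chr11:11768863-11769080 for the first 200 coding bases of exon 7).
Ikzf1 coding exon 3: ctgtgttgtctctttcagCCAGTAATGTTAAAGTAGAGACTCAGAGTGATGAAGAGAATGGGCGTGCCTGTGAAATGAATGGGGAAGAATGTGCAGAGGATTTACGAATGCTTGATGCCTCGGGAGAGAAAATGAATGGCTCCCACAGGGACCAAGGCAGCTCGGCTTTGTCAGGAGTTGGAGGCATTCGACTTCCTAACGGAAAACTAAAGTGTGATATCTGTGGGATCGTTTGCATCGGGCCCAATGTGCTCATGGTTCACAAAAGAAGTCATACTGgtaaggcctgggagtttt
Ikzf1 coding exon 5: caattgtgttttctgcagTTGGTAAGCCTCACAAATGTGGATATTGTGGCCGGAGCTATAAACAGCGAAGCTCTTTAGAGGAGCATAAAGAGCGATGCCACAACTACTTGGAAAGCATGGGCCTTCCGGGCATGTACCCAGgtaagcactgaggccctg
Ikzf1 coding exon 7, first 200 coding bases: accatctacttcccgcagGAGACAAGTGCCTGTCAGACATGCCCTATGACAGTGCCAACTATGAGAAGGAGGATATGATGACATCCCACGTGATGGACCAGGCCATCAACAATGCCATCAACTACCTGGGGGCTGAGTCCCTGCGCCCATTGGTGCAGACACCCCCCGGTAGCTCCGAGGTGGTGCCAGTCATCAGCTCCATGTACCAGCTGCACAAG

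Outside the coding exons, the results turn on a few DHS, and the sequence is given for 4 of them. The +78.3 kb DHS of Ikzf1 (chr11:11763019-11763622) lies in the intron between coding exons 6 and 7 and overlaps no exon of GENCODE or RefSeq, and its central 300 bases are chr11:11763171-11763470. The +81.3 kb DHS (chr11:11766209-11766368), in the same intron, had the highest Ikzf1 mean over all 36 libraries. The +5.16 kb DHS (chr11:11689848-11690488) holds 3 RefSeq start positions of Ikzf1, at 11690121, 11690129 and 11690177, while its nearest GENCODE start is 3403 bp away; the bases before the first of them, chr11:11689848-11690120, are printed. The +88.3 kb DHS of Ikzf3 lies beyond the 3′ end of that gene. The Ikzf5 DHS (chr7:131410315-131410874) covers the start of Ikzf5 and of Acadsb, a fatty acid enzyme gene on the other strand, and the 79 bases between them, chr7:131410522-131410600, are given. The 4 sequences are the plus strand of GRCm38. None of these stretches holds GGGAA or its complement TTCCC, but 3 of them are parts of their DHS: over the whole DHS, on both strands, GGGAA was found 4 times at +5.16 kb, 2 times at +78.3 kb, 1 time at the Ikzf5 DHS and 0 times at +81.3 kb.
Ikzf1 +78.3 kb: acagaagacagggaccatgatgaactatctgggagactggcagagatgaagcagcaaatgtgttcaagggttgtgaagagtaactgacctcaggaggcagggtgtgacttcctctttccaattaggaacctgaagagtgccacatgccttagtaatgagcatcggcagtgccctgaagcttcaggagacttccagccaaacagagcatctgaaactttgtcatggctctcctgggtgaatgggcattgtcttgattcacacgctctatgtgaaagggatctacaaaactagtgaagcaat
Ikzf1 +81.3 kb: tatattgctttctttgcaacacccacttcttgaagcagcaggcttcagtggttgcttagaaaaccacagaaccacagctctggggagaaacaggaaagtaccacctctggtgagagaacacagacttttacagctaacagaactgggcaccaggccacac
Ikzf1 +5.16 kb: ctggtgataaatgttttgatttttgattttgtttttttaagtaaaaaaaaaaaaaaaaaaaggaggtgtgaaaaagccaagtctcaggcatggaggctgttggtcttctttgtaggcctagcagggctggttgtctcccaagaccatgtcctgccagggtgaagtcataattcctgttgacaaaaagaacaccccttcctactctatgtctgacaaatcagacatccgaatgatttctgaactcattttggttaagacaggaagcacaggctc
Between Ikzf5 and Acadsb: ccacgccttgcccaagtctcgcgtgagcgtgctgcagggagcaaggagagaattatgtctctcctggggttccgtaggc

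Motifs were counted in the central 300 bp of every DHS, on both strands. GGGAA stood in 17 of 23 family DHS (73.9%) and in 61.5% of all DHS. Its longer form TGGGAA, which contains GGGAA, stood in 8 members (34.8%) and in 24.7% of all. The E-box CAGCTG, a site type of E2A proteins, was found in 6 members (26.1%) against 19.7%, and TGTGGT, the core of Runx sites, in 6 members (26.1%) against 27.3%. GGGA facing its complement TCCC across 2 further bases, a paired site read TCCC to GGGA, was in 0 members and in 2.97% of all DHS. Matches are descriptions of letters and were not tested.

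Accessibility of the coding exon DHS was higher in the Ikaros line than in the Control line at each of the 6 times, by a log2 of 0.92 to 4.08 over the 36 differences. Exon 7, which encodes the C-terminal part of the protein, showed the highest values. In the Ikaros line its DHS measured 6.62, 6.25 and 6.52 at 0 h (replicates 4, 5 and 6), 5.60, 5.86 and 5.70 at 2 h and 6.05, 6.42 and 6.55 at 6 h. The groups of 12, 18 and 24 h followed with 5.63, 5.49 and 5.18, with 6.20, 6.46 and 6.25 and with 6.02, 6.20 and 6.04. The Control line gave 2.24, 3.25 and 3.09 at 0 h, 3.32, 2.17 and 2.61 at 2 h and 1.78, 2.85 and 2.14 at 6 h. Later it gave 3.29, 2.93 and 1.92 at 12 h, then 2.59, 2.26 and 2.27 at 18 h and lastly 2.17, 3.21 and 1.99 at 24 h. The lowest of the 18 Ikaros libraries (5.18) stood above the highest of the 18 Control libraries (3.32). The Ikaros minus Control difference was 3.61 (SE 0.32, adjusted p = 1.77e-07) at 0 h, 4.08 (SE 0.32, adjusted p = 7.89e-09) at 6 h and 2.72 (SE 0.32, adjusted p = 0.000116) at 12 h.

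Exon 3 also separated the lines completely, with 18 Ikaros libraries between 4.56 and 6.22 and 18 Control libraries between 1.89 and 3.36. Its difference ran from 1.98 at 12 h to 2.91 at 6 h. Exon 4, which encodes zinc fingers of the DNA-binding region, overlapped at one time only. At 12 h its Ikaros libraries measured 4.00, 3.76 and 3.35 and its Control libraries 3.66, 2.44 and 2.23, so Control replicate 4 lay above Ikaros replicate 6. Exon 6 also overlapped at 12 h, where Control replicate 4 lay above Ikaros replicates 5 and 6, with 4.13, 3.38 and 3.38 in the Ikaros line and 3.48, 1.70 and 1.59 in the Control line. Exon 5, in the narrowest of these DHS (156 bp), had the widest Control spread, from −0.11 (replicate 5 at 6 h) to 3.95 (replicate 4 at 2 h). Exon 2 had its lowest Control value, 0.44, in the same library as exon 5. Over 2 to 24 h, the replicate SD of the 6 DHS averaged 0.234 in the Ikaros line and 0.546 in the Control line. The 17 other family DHS had the same direction, with 0.202 and 0.349, so a wider Control spread is not particular to the coding exons.

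**Figure D1:**
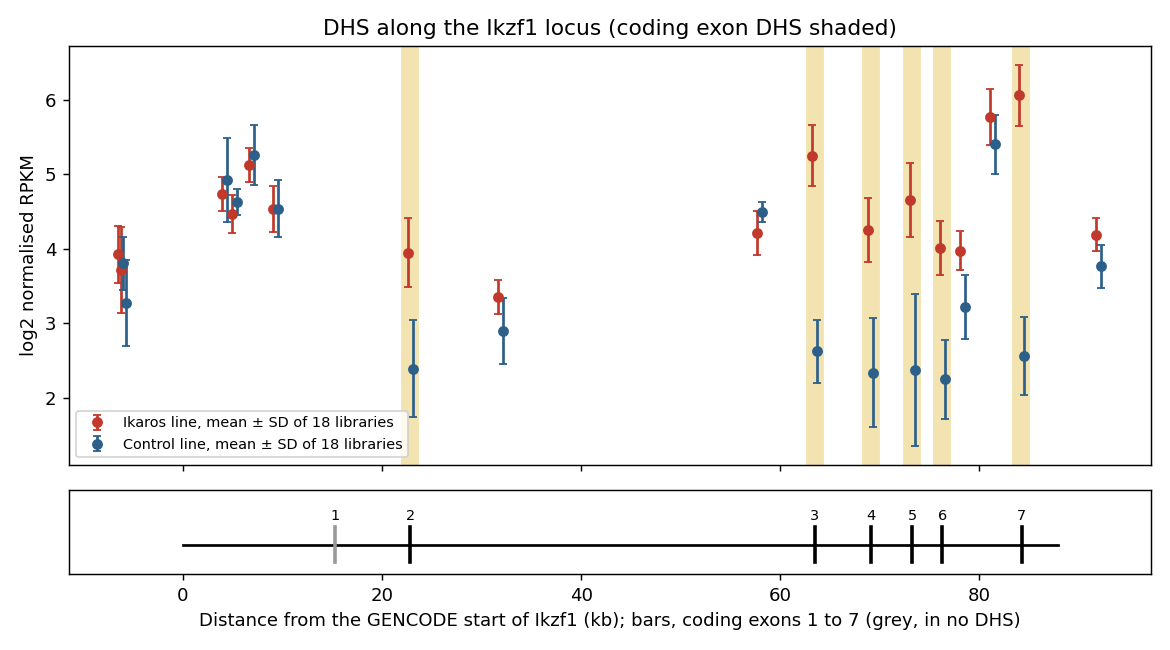
Upper panel, mean ± SD over 18 libraries of each line (log2 normalised RPKM, y axis) for the 17 Ikzf1 DHS against distance from the gene start (kb, x axis), the 2 lines drawn slightly apart; lower panel, the gene with its 7 coding exons. The shaded coding exon DHS hold the large gaps between the lines, such as 6.06 against 2.56 at exon 7, while most other DHS lie close together.

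**Figure D2:**
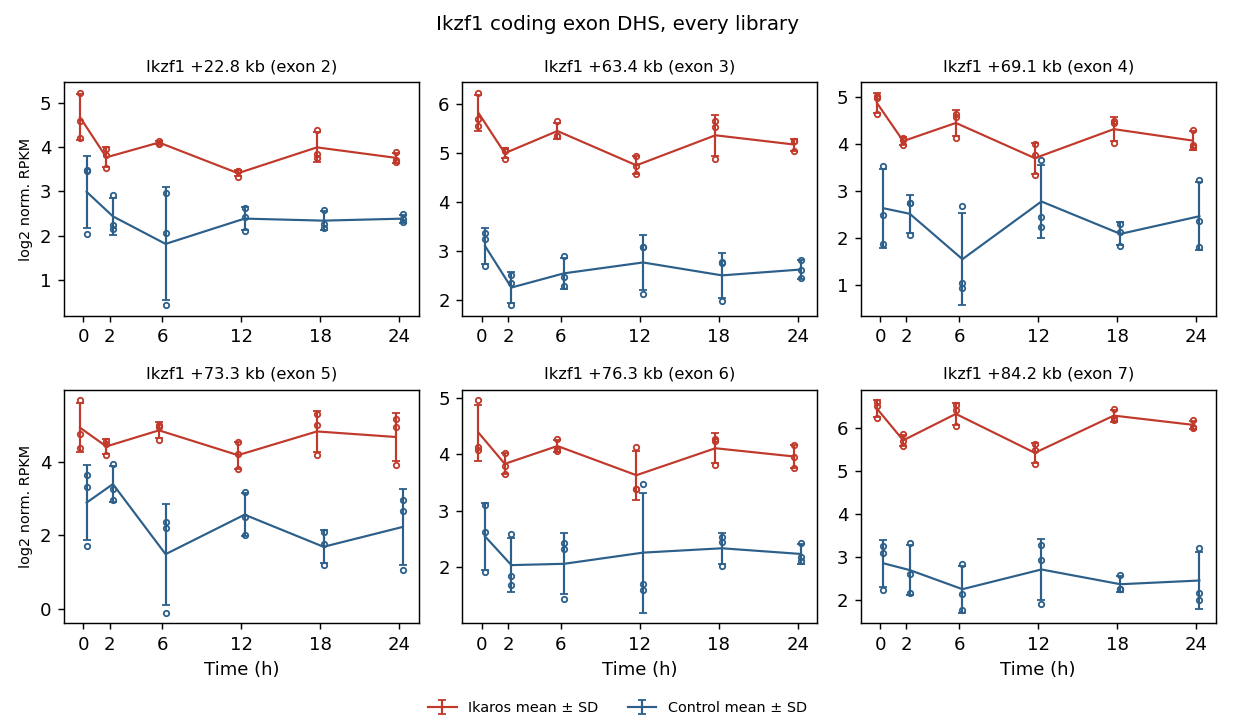
Values of the 6 Ikzf1 coding exon DHS (log2 normalised RPKM, y axis) in every library against time (h, x axis), with lines and bars for the mean ± SD of 3 replicates. Ikaros points lie above Control points in each panel, apart from the overlaps of exons 4 and 6 at 12 h.

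Called at an adjusted p under 0.05 (limma, Benjamini-Hochberg over all DHS) were 6 of 6 coding exon DHS in the comparisons of 0, 6 and 18 h. The comparison of 2 h called 3 (exons 3, 6 and 7), that of 12 h called 2 (exons 3 and 7), and that of 24 h called 5, with exon 2 at an adjusted p of 0.0799. Over all DHS, the shares called for 0, 2, 6, 12, 18 and 24 h were 12.9%, 0.195%, 0.578%, 1.31%, 0.699% and 1.33%. With all 3 Ikaros values above all 3 Control values were 6 of 6 exon DHS at 0, 2, 6, 18 and 24 h and 4 of 6 at 12 h. The background for that count was, over all DHS and in the same order of times, 12.4%, 6.49%, 11.1%, 14%, 12% and 15.1%. By the methods, peaks of the time points were pooled, so a DHS can enter the table through the groups where it is high. Whether the exon DHS entered through Ikaros groups alone is not given. Their means over the 18 Control libraries were low, from 2.25 (exon 6) to 2.62 (exon 3), beside a median level of 3.95 over all DHS. Neither the p-values nor the shares over all DHS allow for such an entry. Its effect on the counts and p-values was not tested. Within batches, the Ikaros library was the higher one in 36 of 36 exon and time pairs of each replicate number, with medians of 2.49, 1.95 and 1.96 for numbers 4, 5 and 6. Where the groups did not overlap this follows of itself, so only exons 4 and 6 at 12 h add to the count above. The exons share libraries, so the pairs are not independent. With the replicate number as a block, 3 of these calls were lost: exon 6 at 2 h (adjusted p = 0.0541), exon 2 at 18 h (0.0641) and exon 4 at 24 h (0.0627). Exons 3 and 7 kept every call when any single library was left out. Other exons lost a call without 1 library of the groups compared. Among 0 h libraries these were Control replicate 4 (exons 2 and 5) and Ikaros replicate 4 (exon 5). For exon 6 at 2 h they were Control replicates 4 and 6 and each Ikaros replicate, and for exon 6 at 6 h Ikaros replicate 6. At 18 h exon 2 was lost without any 1 of the 6 libraries, exon 6 without any but Control replicate 5, and exon 4 without Ikaros replicate 4. At 24 h exon 4 was lost without any but Control replicate 5, exon 5 without Control replicate 4 or Ikaros replicate 4 or 5, and exon 6 without these or Control replicate 6. The adjusted p-values of the called exon differences over all alternatives ran from 9.75e-11 to 0.704.

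**Figure D3:**
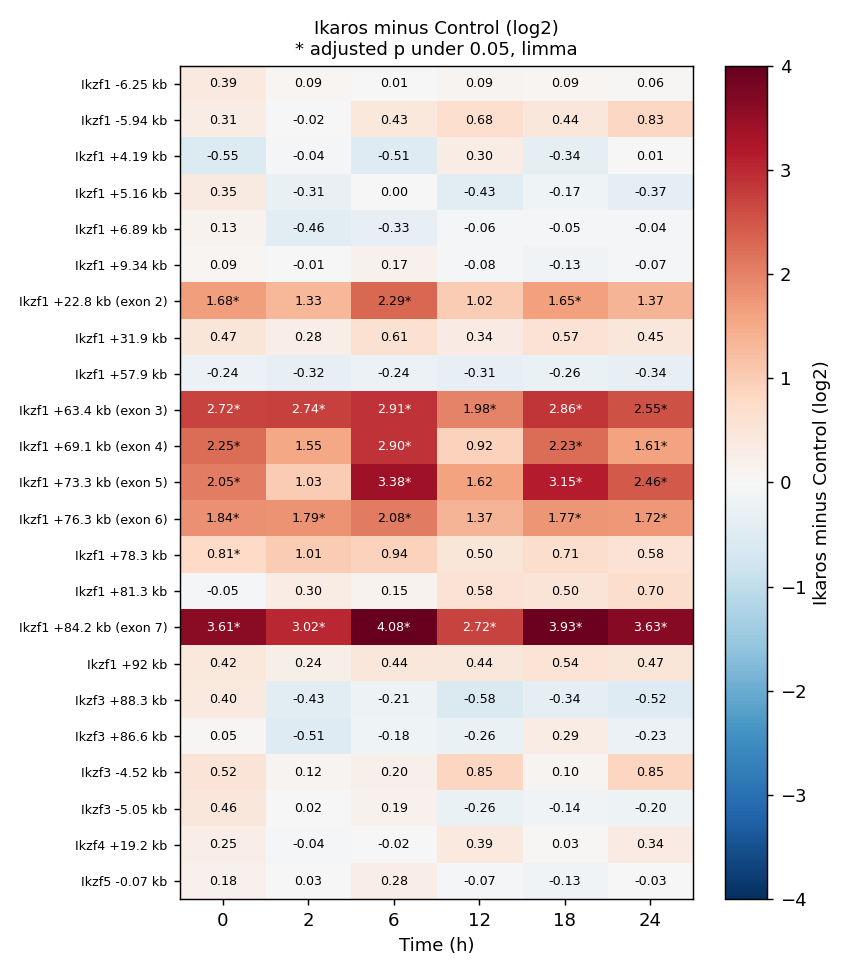
Ikaros minus Control (log2, colour and printed value) for the 23 family DHS (rows, named by gene and distance from its start) at the 6 times (columns, h). Stars mark limma calls at an adjusted p under 0.05; they stand in the rows of the Ikzf1 coding exons and once at Ikzf1 +78.3 kb.

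The excess of the Ikaros line was also read on a linear scale, as normalised RPM (the density times the DHS width) over the whole DHS, averaged over the 6 times. It was 62.8 RPM for exon 7 (698 coding bases), 18.3 RPM for exon 3 (261 bases) and 7.45 RPM for exon 4 (168 bases). Smaller values were found for exon 6 (5.76 RPM, 135 bases), exon 2 (5.30 RPM, 120 bases) and exon 5 (3.18 RPM, 123 bases). The order followed coding length apart from exons 2 and 5, which differ by 3 coding bases (Spearman's rho = 0.943 and Pearson's r = 0.999 over the 6 exons, which share libraries; exon 7 carries much of r). The RPM values contain the DHS width, however, and rho was 0.986 between excess and width and 0.899 between coding length and width. As a density, the RPM divided by the width, the excess was 62.8 RPKM at exon 7 (a DHS of 1000 bp) and 33.2 at exon 3. It was 20.4 at exon 5, 14.1 at exon 4, 11.5 at exon 6 and 10.6 at exon 2. Its rho was 0.829 against coding length and 0.638 against width. The width still enters the density as its divisor, and exon 5 has 123 coding bases in a DHS of 156 bp. Neither measure is thus free of the width. Per kb of coding sequence the excess was not constant: it ran from 25.8 RPM at exon 5 to 89.9 RPM at exon 7. The Control levels had a rho against coding length of 0.829 as RPM and 0.257 as density.

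**Figure D4:**
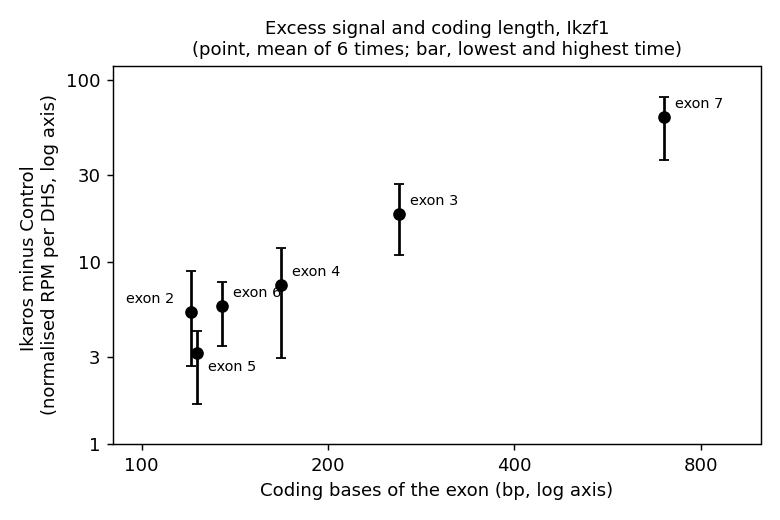
Ikaros minus Control signal per DHS (normalised RPM, log axis) against the coding bases of each exon (bp, log axis); points are means of the 6 times and bars run from the lowest to the highest time. Exon 7 stands highest at 62.8 RPM and exon 5 lowest at 3.18 RPM.

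Over time, the group means of the Ikaros line ran in the same order in 5 of the 6 exon DHS: 0 h highest, then 6, 18, 24 and 2 h, and 12 h lowest. In exon 2 the means of 2 and 24 h changed places. The order shared by the 5 exon DHS occurred in 1.92% of all DHS and in 1 of the 17 other family DHS. The order of exon 2 was also that of Ikzf1 +9.34, +78.3 and +92.0 kb. With 0 h highest and 12 h lowest were also Ikzf1 −6.25 and +5.16 kb and Ikzf3 −5.05 and +88.3 kb. Neither end of the order is thus particular to the coding exons. The noise correction models the groups, so group means may depend on each other, and the shared order was not tested. Pairwise correlations of the 6 exon DHS over the 18 Ikaros libraries were 0.601 to 0.882 (median 0.795), and over the 18 Control libraries −0.0635 to 0.671 (median 0.473). The limma F-test of change over time called 0 of 23 family DHS in the Ikaros line (2.29% of all DHS called, lowest adjusted p among members 0.131, 6693 DHS at an unadjusted p under 0.05) and 0 of 23 in the Control line (0.148%, lowest 0.265, 6647 DHS at an unadjusted p under 0.05). In a fit of the Ikaros libraries alone, listed among the alternatives, 5 members were called: exons 2, 3, 4 and 7 and the +81.3 kb DHS. The share of all DHS called in that fit is not given here, so these 5 calls do not set the members apart. The interaction of line and time called 0 members (1.1% of all DHS, 7595 at an unadjusted p under 0.05). The line difference of the exon DHS itself did not pass the test of change from 0 h to 24 h, with estimates from −0.63 (exon 4) to 0.41 (exon 5).

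Outside the coding exons the differences between the lines were smaller. Over the 17 remaining family DHS the median difference was 0.31 at 0 h and between −0.01 and 0.15 at the later times, beside medians over all DHS of −0.06 at 0 h and 0.00 to 0.06 later. Of these 17 DHS, 1 was called at 0 h and 0 at each later time. Over all DHS 12.9% were called at 0 h and 0.195% to 1.33% at the later times. These counts are thus too small to set the 17 DHS apart from the rest.

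The DHS called at 0 h was Ikzf1 +78.3 kb, the intronic site printed above. Its Ikaros libraries measured 4.54, 4.47 and 4.29 at 0 h, 3.75, 4.09 and 3.80 at 2 h and 4.18, 3.95 and 3.96 at 6 h, and after that 3.57, 3.82 and 3.76 at 12 h, 4.03, 3.79 and 4.03 at 18 h and 3.84, 3.82 and 3.84 at 24 h. Its Control libraries measured 3.28, 4.06 and 3.56 at 0 h, 2.58, 2.88 and 3.17 at 2 h and 3.02, 2.34 and 3.92 at 6 h, and after that 3.22, 3.49 and 2.94 at 12 h, 3.59, 2.84 and 3.30 at 18 h and 3.33, 3.34 and 3.10 at 24 h. At each time the 3 Ikaros values lay above the 3 Control values, although by little at 6 h, where Control replicate 6 reached 3.92 and the lowest Ikaros library 3.95. Such a complete separation at all 6 times was seen in 0.261% of all DHS and, in the family, in this DHS and in exons 2, 3, 5 and 7. It follows from this separation that Ikaros was higher within batches in 18 of 18 pairs (0.04 to 1.61). The difference was 0.81 (SE 0.27, adjusted p = 0.0474) at 0 h and 1.01 (SE 0.27, adjusted p = 0.122) at 2 h, and it was called at 0 h alone. That call is fragile: it was lost in 11 of 17 alternatives, among them the replicate block (adjusted p = 0.0599), the removal of trends with level, GC and width (0.11) and the fits in which Control replicate 4 or 6 or any of the 3 Ikaros replicates of 0 h was left out, with adjusted p-values over all alternatives of 0.0195 to 0.393.

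Ikzf1 +92.0 kb (chr11:11776738-11777255), beyond the 3′ end of the gene, was higher in the Ikaros line by 0.24 to 0.54 at the 6 times. Its groups did not overlap at 0, 6, 12 and 18 h, with for example 3.88, 4.22 and 3.95 against 3.51, 3.57 and 3.64 at 12 h. None of these differences was called (lowest adjusted p = 0.2, at 0 h). Ikzf1 +57.9 kb (chr11:11742678-11743184), an intronic site, went the other way, with differences of −0.24 to −0.34. Its groups did not overlap at 2, 12 and 24 h and no difference was called, and its Ikaros replicate 4 was the highest of the 3 at 0, 2, 18 and 24 h. The share of all DHS with all 3 Ikaros values below all 3 Control values was not counted. Such separations, here and at the sites below, thus have no background beside them.

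The +81.3 kb site had a mean of 5.58 over the 36 libraries, above 97.2% of all DHS and the highest at Ikzf1. In the 18 Ikaros libraries alone its mean of 5.76 was below the 6.06 of exon 7. At 0 h the Ikaros libraries gave 5.06, 4.89 and 5.29 and the Control libraries 5.86, 4.31 and 5.22. At 24 h they gave 6.16, 6.09 and 5.95 against 4.81, 5.23 and 6.05. The lines overlapped at both times: Control replicate 4 lay above the Ikaros libraries at 0 h, and Control replicate 6 within their range at 24 h. At 12 and 18 h the Ikaros libraries lay above the Control libraries. The Ikaros group means ran from 5.08 at 0 h to 6.07 at 24 h, against 5.13 to 5.59 (at 6 h) in the Control line. The difference of 0.70 (SE 0.26, adjusted p = 0.17) at 24 h and its change since 0 h of 0.76 (SE 0.36, adjusted p = 0.192) did not pass the threshold.

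At the 5′ end of Ikzf1, 4 DHS between +4.19 and +9.34 kb formed a cluster. Their means over 36 libraries ran from 4.54 at +9.34 kb to 5.19 at +6.89 kb, and none was called at any time. The annotations differ here: the GENCODE starts of the gene lie in no DHS, whereas RefSeq starts lie in the +5.16 kb DHS, and +4.19 kb is 845 bp from the nearest of them. The RefSeq start DHS gave 5.19, 4.45 and 4.95 in the Ikaros line at 0 h and 4.24, 4.46 and 4.15 at 24 h. In the Control line it gave 4.58, 4.57 and 4.40 at 0 h and 4.45, 4.68 and 4.84 at 24 h. The Ikaros libraries overlapped the Control libraries at both times, and lay below them at 2 and 12 h. The line difference moved from 0.35 to −0.37, a change of −0.72 (SE 0.23, adjusted p = 0.0547) and short of the threshold. The lines overlapped at all times at +6.89 and +9.34 kb, while +4.19 kb was lower in the Ikaros line at 0 and 18 h without overlap. Upstream of the gene, −6.25 kb (chr11:11678677-11678838) overlapped at all times. The −5.94 kb DHS (chr11:11678998-11679128) had the largest 24 h difference of the locus outside the coding exons. It measured 4.03, 3.90 and 3.97 in the Ikaros and 2.96, 2.91 and 3.54 in the Control libraries, which did not overlap, and the difference of 0.83 (SE 0.47, adjusted p = 0.432) was not called. Its Ikaros libraries of 0 h spread more widely, with 1.61, 3.75 and 4.23. In the long intron after exon 2, +31.9 kb (chr11:11716655-11717155) had differences of 0.28 to 0.61, none called, and separated the lines at 18 h only.

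At Ikzf2 no DHS fell within 10 kb, and the nearest was 97.8 kb from the gene. Extending the flanks to 50 kb left Ikzf2 at 0 and raised the others to 27 DHS at Ikzf1, 8 at Ikzf3, 6 at Ikzf4 and 5 at Ikzf5. Regions below the authors' peak calling and filter are not in the table, so Ikzf2 has no value here.

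Ikzf3, on the minus strand at chr11:98464902-98546031, had no DHS in its body and 2 on each side. The upstream pair, at −4.52 kb (chr11:98550497-98550607) and −5.05 kb (chr11:98550793-98551378), lies at the start of Zpbp2, which encodes a sperm protein and runs the other way. The −5.05 kb DHS covers that start and was the most accessible Ikzf3 site, with a mean of 5.19. It gave 5.42, 5.34 and 5.81 in the Ikaros line and 4.93, 5.47 and 4.78 in the Control line at 0 h, and 4.87, 5.18 and 5.08 against 5.31, 5.21 and 5.22 at 24 h. The groups overlapped at 0 h, and at 12 and 24 h the Ikaros libraries were the lower ones. Its difference was 0.46 (SE 0.16, adjusted p = 0.0599) at 0 h and −0.20 (SE 0.16, adjusted p = 0.63) at 24 h. The −4.52 kb DHS had the largest 24 h difference of the locus, 0.85 (SE 0.45, adjusted p = 0.385), with 4.85, 4.84 and 4.60 against 3.24, 4.08 and 4.40. Control libraries spread widely there, down to 1.99 in replicate 6 at 0 h.

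Of the 2 downstream DHS, +88.3 kb was the family site whose line difference at 24 h was called different from that at 0 h. The interaction of line and time over the whole course did not call it (adjusted p = 0.187). At 0 h it measured 4.72, 4.29 and 4.64 in the Ikaros line and 3.98, 4.38 and 4.08 in the Control line. At 2 h the values were 4.07, 4.32 and 4.12 against 4.61, 4.42 and 4.78, and at 12 h they were 3.95, 3.95 and 3.92 against 4.04, 4.59 and 4.92. At 24 h they were 3.78, 3.83 and 4.21 against 4.61, 4.33 and 4.45. The groups overlapped at 0 h through Ikaros replicate 5 and Control replicate 5, and every Ikaros library was below every Control library at 2, 12 and 24 h. The difference went from 0.40 at 0 h to −0.43 at 2 h and −0.52 at 24 h. Its change from 0 h to 24 h, −0.92 (SE 0.27, adjusted p = 0.0392), was the 1 call among the 23 members, where 6.26% of all DHS were called. The call was lost in 15 of 23 alternatives, among them leaving out replicate 4 or 6 of either Control group or of the Ikaros 0 h group, or replicate 4 or 5 of the Ikaros 24 h group. It was also lost with quantile normalization (−0.97, adjusted p = 0.0529), and with trends with level, GC and width removed the estimate shrank to −0.20 (adjusted p = 0.763). Over all alternatives it ran from −1.18 to −0.20. It held with the replicate block (adjusted p = 0.0486). For the change between 2 h and 24 h, a contrast without 0 h libraries, 0 members were called, and 0% of all DHS (1503 at an unadjusted p under 0.05). The +88.3 kb difference was negative at each of the 5 times from 2 h on and changed by −0.10 (adjusted p = 1) between 2 h and 24 h. The neighbouring +86.6 kb DHS (chr11:98459378-98459508) showed no called difference, with values of −0.51 to 0.29.

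Ikzf4, on the minus strand at chr10:128630843-128645991, had its single DHS at +19.2 kb (chr10:128626564-128627085), downstream of the gene and over the start of Rps26, a ribosomal protein gene. Its mean over the 36 libraries, 5.74, was the highest of the family and above 98.3% of all DHS, while in the Ikaros libraries alone its 5.82 was below the 6.06 of Ikzf1 exon 7. Its Ikaros libraries lay between 5.46 and 6.11, and its Control libraries between 4.73 and 6.22. The lines overlapped at each time, and no difference exceeded 0.39. Ikzf5, on the minus strand at chr7:131388652-131410521, had its single DHS at the shared start with Acadsb, with a mean of 4.95. It was the only family gene whose GENCODE start lay in a DHS of the table. Its Ikaros libraries stayed between 4.83 and 5.28 and its Control libraries between 4.37 and 5.46, with differences of −0.13 to 0.28 and none called. By the mean over both lines, the highest sites of the 4 loci ranked Ikzf4 (5.74), Ikzf1 (5.58), Ikzf3 (5.19) and Ikzf5 (4.95). Their SD over the 18 Ikaros libraries was 0.19, 0.37, 0.24 and 0.11, and the library ranges of neighbours in this order overlapped.

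**Figure D5:**
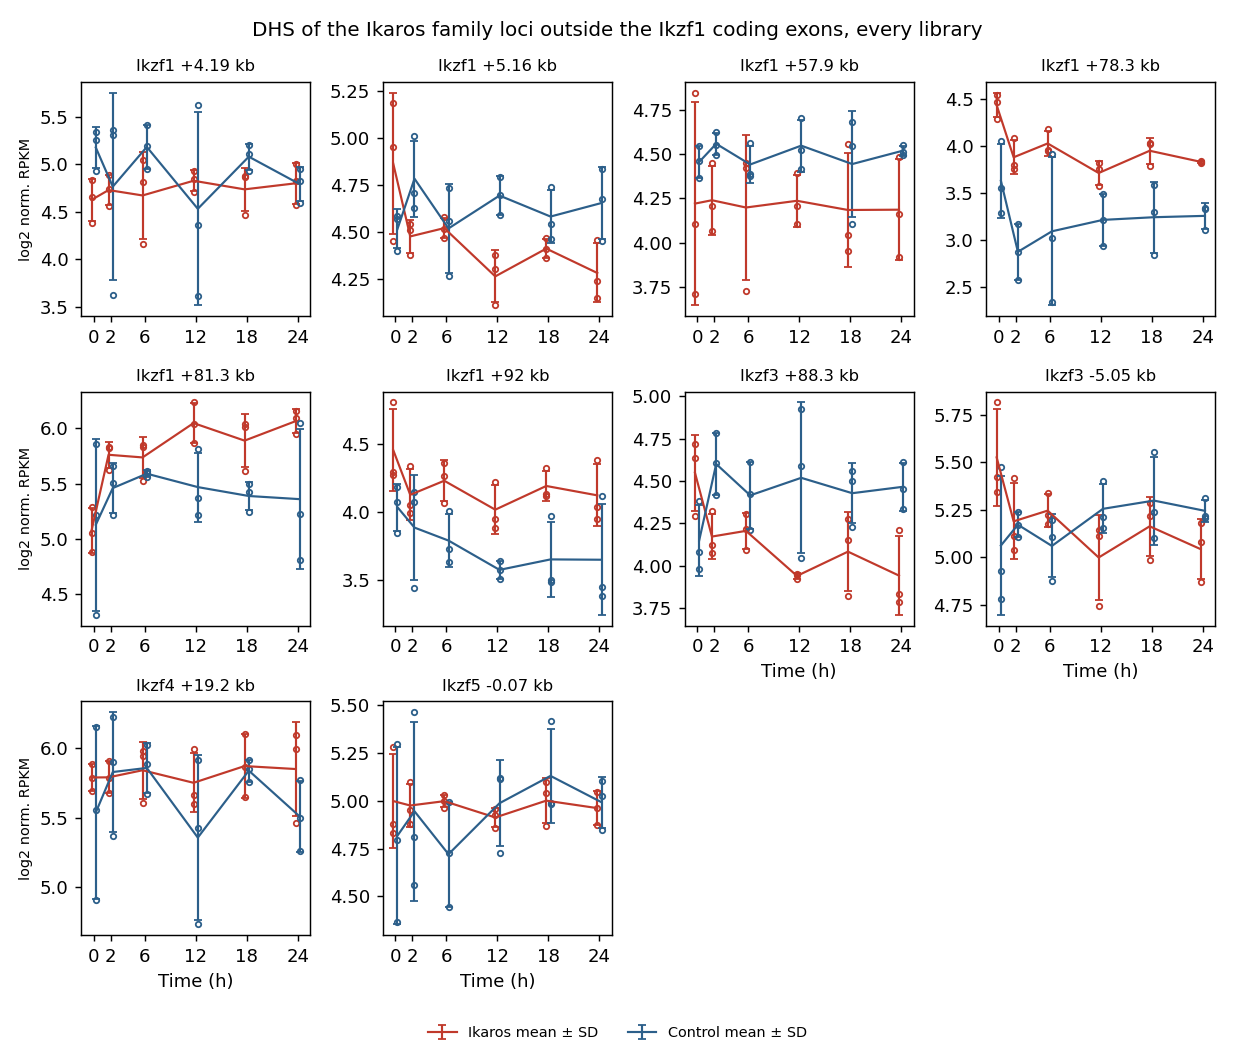
Values (log2 normalised RPKM, y axis; scales differ between panels) in every library against time (h, x axis) for 10 family DHS outside the coding exons, with lines and bars for the mean ± SD of 3 replicates. Ikzf1 +78.3 kb keeps the Ikaros points above the Control points throughout, and Ikzf3 +88.3 kb has Ikaros above Control in the means at 0 h (4.55 and 4.15) and below from 2 h on.

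Ikaros works with chromatin remodelling and corepressor complexes, and the promoter DHS of a list of such partner genes were set beside the family. Of 22 genes 18 had a promoter DHS, 25 in all. At 0 h 12 of these 25 were called, all higher in the Ikaros line, with a median difference of 0.48 beside 0.34 for all 13657 promoter DHS, of which 26.0% were called. Hdac1, a histone deacetylase gene, differed by 1.04 (SE 0.17, adjusted p = 0.000509), and Chd4, the remodelling ATPase of the NuRD complex, by 1.15 (SE 0.27, adjusted p = 0.00628). From 2 h on, 0 of 25 were called at each time, with 2 to 8 at an unadjusted p under 0.05, where 0.0586% to 0.835% of all promoter DHS were called, too few for the 0 to set the partners apart. The change from 0 h to 24 h was called, downward, in 4 of 25, where 10.6% of all promoter DHS were called: Hdac1 (−1.39, adjusted p = 0.00515), Rbbp4 (−0.86, 0.0333), Smarca4 (−1.02, 0.0382) and Arid1a (−1.10, 0.0452). Further promoter DHS of these genes were not called: Rbbp4 (−0.50, adjusted p = 0.307), Smarca4 (−0.87, 0.0637) and Arid1a (−0.65, 0.125, and −0.34, 0.609).

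The DHS most like the coding exons were sought by Pearson correlation over 36 libraries with the mean of the 6 exon DHS, outside the family loci. The first was a DHS at chr15:103376872-103377400, 671 bp from the start of Gm37322 (r = 0.962). The next were chr10:95707815-95708520, nearest to Gm47669 (r = 0.962), and chr9:32425408-32425932, nearest to Gm22060 with its start 20996 bp away (r = 0.955). Chosen for likeness, they separate the lines too: the first lay between 3.84 and 4.76 in the Ikaros libraries and between 2.46 and 3.55 in the Control libraries. For the second the ranges were 3.96 to 4.92 and 2.02 to 3.51, and for the third 4.50 to 5.26 and 2.67 to 3.90. For the most accessible site of each locus the closest likeness was lower, from 0.809 for Ikzf5 (a DHS at the start of Mastl) to 0.855 for Ikzf4 (at the start of R3hdm1). For Ikzf1 +81.3 kb it was 0.825 (near Gm45397) and for Ikzf3 −5.05 kb 0.839 (at the start of Rbl1).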

How the data were processed

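The authors aligned DNase-seq reads to mm10, called narrow and broad peaks per replicate with HOMER, merged them into DHS, counted reads, filtered low DHS, applied RPKM and TMM scaling, and took out structured noise with ARSyN. The deposited values are log2 of the result; base 2 was checked from the values, which sum to 369487 to 432755 RPM per library; base e would give more than a library can hold. Counts were not used here, so no depth can be given per value, and the number of libraries limits the precision.

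Differences were fitted with limma 3.58.1 (R 4.3.3) on the values as deposited: 12 group means over all 36 libraries, contrasts, eBayes with trend, and Benjamini-Hochberg adjustment over 52788 DHS (two-sided, threshold 0.05). The fit was tested on simulated data. Annotation was GENCODE vM21 and RefSeq of GRCm38; sequences came from the GRCm38 genome, and coordinates are as deposited. 1 sequence and 1 marker gene are not reported here. The labels give each replicate number its batch, so the numbers pair libraries; residuals of same-numbered libraries correlated by −0.0128 on average (198 pairs, −0.328 to 0.342). The main fit has no block.

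DHS named are the coding exon DHS, those within 1000 bp of a family start, the most accessible and the most different at 24 h of each locus, those called, and the 3 most alike. Members, lists and tests were chosen with earlier results of these data known. Alternatives covered normalization, a pseudocount, low DHS, block, weights, trend, samples, trends with GC and width, and each library left out.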

Additional observations from a re-analysis of the deposited data

Results flagged for a closer look

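The line difference at Ikzf3 +88.3 kb differed between 0 h and 24 h by −0.92 on the log2 scale (limma, adjusted p = 0.0392), with Ikaros above Control on average at 0 h and below at 24 h. With trends with level, GC and width removed the change was −0.20 (adjusted p = 0.763). If the 0 h cells were a separate collection, on which labels and methods differ, its part in the change cannot be told apart. Groups of 3 are too small for a test of single outlying libraries, so none was made.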

How the results depend on the processing

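Over the alternatives, exon 3 and exon 7 of Ikzf1 kept their calls at 0, 6, 18 and 24 h in all 17 alternatives; at 2 h both lost them when only the 2 groups compared were fitted, and at 12 h in that fit and without replicate 6. No called difference reversed its sign. Leaving out DHS below the 25th percentile of mean level removed 6 members, 4 of them coding exon DHS, and left 3 members called at 0 h and 2 at 6, 18 and 24 h. Fitting only the groups of a comparison left 2 called at 0 h and 6 h and 0 at 2 h and 12 h, left 0 for the change from 0 h to 24 h, and gave 5 for change over time in the Ikaros cells. Removing trends with level, GC and width left 2 in the comparison of 24 h. For the change from 0 h to 24 h the count fell to 0 members with quantile normalization, with a spread per group and with the trends removed. Change over time in the Ikaros cells gave 1 member with quantile normalization and with a spread per group. Without single libraries or replicate numbers, the members called numbered 3 to 8 for 0 h, 2 to 3 for 2 h, 2 to 7 for 6 h, 0 to 4 for 12 h, 2 to 5 for 18 h and 2 to 5 for 24 h. For the change between 0 h and 24 h they numbered 0 to 3. With the replicate block the counts were 6, 2, 6, 2, 5 and 4 at 0, 2, 6, 12, 18 and 24 h, and apart from the 4 calls named in the report it changed no other call. The share of all DHS called is not given for any of these alternatives. A rise or fall of a count can thus belong to the whole fit and not to the members. The causes of these shifts were not tested beyond the smaller number of libraries or DHS that an alternative uses.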
